A study of Mus musculus with 6 samples.

Results

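Insr, Irs1, Irs2, Akt2, Pik3r1, Foxo1, Foxo3 and Igfbp1 carry the insulin signal in hepatocytes or respond to it. They were taken by gene name from a table of raw read counts for whole mouse liver. All 8 were present among 55367 gene names, and all 8 were among the 18703 genes with enough counts to be tested. The table compares 3 libraries of Lmln-KO mice (genotype Lmln-/-) with 3 libraries of wild-type (WT) mice. Both groups are of the C57BL/6J strain and were 46 weeks old, except Lmln-KO replicate 3, which was 39 weeks old. The product of Lmln, invadolysin, is a metalloprotease found on lipid droplets. The labels do not give sex, feeding state, the hour of collection or how Lmln was disrupted, and they do not say that each library came from its own animal. P-values therefore measure the spread between these libraries. Libraries of each group differ in sex-chromosome transcripts (below), so this spread is not only technical. Libraries alike in these transcripts may still come from the same animal.

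Insulin binds its receptor, INSR, which phosphorylates the docking proteins IRS1 and IRS2. These recruit phosphoinositide 3-kinase through its regulatory subunit p85α, the product of Pik3r1, and the lipid that the kinase makes activates AKT2, the main AKT isoform of the liver. AKT phosphorylates FOXO1 and FOXO3, which then leave the nucleus. In the fasted liver the FOXO factors are nuclear and drive genes such as Igfbp1, which encodes a secreted protein that binds insulin-like growth factors, and also Irs2, G6pc and Pck1. RNA levels report none of the phosphorylation steps, which were not measured.

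Of the 8 genes, Igfbp1 and Irs2 varied most between the 6 libraries, and the promoters of both hold a FOXO-type motif, as does the promoter of Irs1, whose level varied less. The windows run from 250 bases before to 50 bases after the gene start (RefSeq, GRCm38.p6, printed on the strand of the gene) and are those of Igfbp1 (chr11:7197537-7197836, plus strand), Irs2 (chr8:11008880-11009179, minus strand) and Irs1 (chr1:82291390-82291689, minus strand). Capitals mark CAAAACA, the core of the insulin response element, or its reverse complement.
Igfbp1: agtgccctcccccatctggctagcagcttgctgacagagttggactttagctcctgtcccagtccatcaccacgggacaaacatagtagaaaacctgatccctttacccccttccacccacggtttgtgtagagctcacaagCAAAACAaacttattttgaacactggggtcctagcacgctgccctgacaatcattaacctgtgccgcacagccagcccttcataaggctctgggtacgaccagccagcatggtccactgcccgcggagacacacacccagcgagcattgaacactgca
Irs2: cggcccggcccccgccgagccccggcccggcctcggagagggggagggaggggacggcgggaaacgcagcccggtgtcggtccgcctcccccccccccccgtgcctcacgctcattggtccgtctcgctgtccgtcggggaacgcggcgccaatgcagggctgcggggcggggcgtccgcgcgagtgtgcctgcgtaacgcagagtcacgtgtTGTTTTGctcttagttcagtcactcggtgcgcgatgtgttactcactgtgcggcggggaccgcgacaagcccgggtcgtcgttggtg
Irs1: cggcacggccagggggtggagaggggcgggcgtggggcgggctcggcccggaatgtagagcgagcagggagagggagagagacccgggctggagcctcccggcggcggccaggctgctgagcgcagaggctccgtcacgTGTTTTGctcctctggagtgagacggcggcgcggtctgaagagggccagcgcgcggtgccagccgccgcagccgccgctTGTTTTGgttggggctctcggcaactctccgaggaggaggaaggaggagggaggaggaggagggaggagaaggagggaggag
The first base of the motif, in the direction printed, lay 108 bases before the start of Igfbp1, 37 bases before that of Irs2, and 111 and 32 bases before that of Irs1. It stood on the gene's own strand in Igfbp1 and on the opposite strand in Irs2 and Irs1. Both strands were searched for CAAAACA and for GTAAACA, the core of the FOXO consensus, and no match of one overlapped a match of the other. CAAAACA was in 6.29% of 32817 mouse promoter windows of the same length and GTAAACA in 3.65%. At least 1 of the 2 was in 9.64% of windows, and in 3 of the 11 windows of the 7 genes that had a promoter entry. Insr had none. The letters GTAAACA were in no window of the 7 genes. A match describes the sequence and does not show a site that is bound.

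Gene counts summed to between 20957895 and 22494696 in Lmln-KO libraries and between 17388360 and 18272045 in WT libraries. Lmln itself, the targeted gene, had 4, 12 and 2 counts in Lmln-KO libraries, against 79, 80 and 39 counts in WT libraries. The libraries fall into 2 sets by sex-chromosome transcripts. Lmln-KO replicates 1 and 2 and WT replicate 1 had Y-linked transcripts and almost no Xist, while Lmln-KO replicate 3 and WT replicates 2 and 3 had Xist and almost none of the Y-linked transcripts. The first principal component, which held 56.3% of the variance, separated the same 2 sets. Age moves with this split, since the 39-week-old animal is the single Lmln-KO library with Xist, so among the Lmln-KO libraries age and sex-marker set cannot be told apart. Each gene is therefore given by genotype alone, with a term for the sex-marker set, and within each set. The summed level of 6 hepatocyte markers was 59630 to 72778 CPM in Lmln-KO libraries and 74515 to 94433 CPM in WT libraries, without overlap. Alb, the largest part of this sum, was 4.54, 5.35 and 6.34% of all counts in Lmln-KO, against 6.56, 6.39 and 7.42% in WT. The log2 fold change was negative for 5 of the 6 hepatocyte markers. It was also negative for 5 of 5 Kupffer, 4 of 5 stellate, 3 of 5 endothelial and 2 of 5 cholangiocyte markers. CPM is the count scaled to library size after TMM normalization. Kupffer, endothelial, stellate, cholangiocyte and neutrophil marker sums overlapped between the groups, as did those of adipocytes, while those of B and plasma cells (at most 5.28 CPM in Lmln-KO and at least 5.76 CPM in WT) and of T and NK cells (at most 1.49 CPM in Lmln-KO and at least 2.14 CPM in WT) did not. Enough counts to be tested were found for 3 of 5 B and plasma cell markers and 0 of 5 T and NK cell markers. Of 5 pancreas markers, Ins1, Ins2 and Cpa1 had 0 counts in every library. The 5 together summed to at most 0.096 CPM in Lmln-KO libraries and at most 0.058 CPM in WT libraries. The part of these marker differences in the results below was not tested, and in whole liver fewer cells of a type and less RNA per cell cannot be told apart.

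None of the 8 genes passed the threshold of an adjusted p of 0.05 in the test by genotype alone (edgeR's quasi-likelihood test, Benjamini-Hochberg adjusted p between 0.933 and 0.972), and nor did any other gene tested (0.0% of 18703), where DESeq2 called 24. Lmln itself, at a log2 fold change of -3.72, had an adjusted p of 0.933 in this edgeR test and 2.3e-06 in DESeq2. Missing the threshold in edgeR's test is thus no evidence of an unchanged level. At an unadjusted p under 0.05 stood 2 of the 8, Pik3r1 higher and Foxo1 lower in Lmln-KO, where 871 of all tested genes, 4.66%, did. The libraries of the 2 genotypes did not overlap for 3 of the 8, Akt2 and Foxo1 lower and Pik3r1 higher, where 10.3% of tested genes were without overlap, 5.73% lower and 4.61% higher. The log2 fold change was negative for 7 of the 8, where 9466 of 18703 tested genes were negative. Of the 7, Insr, Irs1 and Foxo3 were near 0 (-0.04, -0.06 and -0.09), and Insr was at 0.0027 with the sex-marker term. When each Lmln-KO library was set only against WT libraries of its own sex-marker set, Igfbp1 joined the 3 genes without overlap. Igfbp1, Foxo1 and Akt2 were lower and Pik3r1 higher in Lmln-KO within both sets without overlap, 4 of 8 genes, where 24.0% of tested genes kept 1 direction in this way (12.3% lower and 11.8% higher). DESeq2 with the sex-marker term called 1 of the 8, Igfbp1, where it called 0.166% of tested genes.

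**Figure D1:**
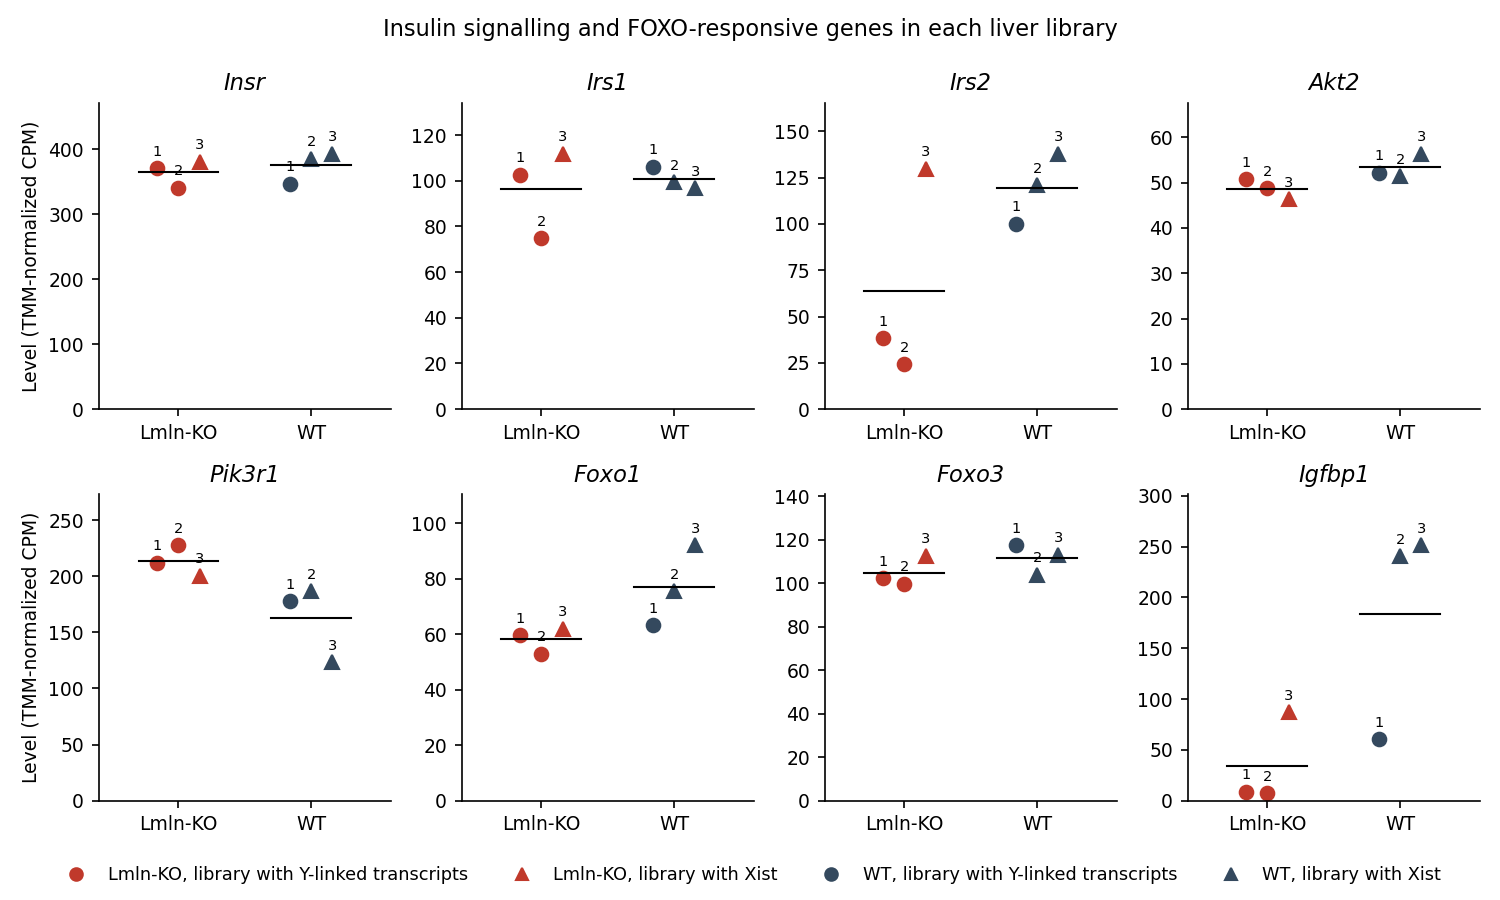
TMM-normalized CPM (linear axes from 0, 1 panel per gene) in each of the 3 Lmln-KO and 3 WT libraries, with the replicate number above each point, circles for libraries with Y-linked transcripts, triangles for libraries with Xist, and a line at the group mean. Igfbp1 ran between 7.32 and 251 CPM and Irs2 between 24.2 and 138 CPM, while Insr stayed between 341 and 394 CPM.

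RNA of the receptor differed between the genotypes by less than the spread of the libraries. Insr (chromosome 8, 3122061 to 3279617, minus strand, GRCm38) had 371, 341 and 381 CPM in Lmln-KO replicates 1, 2 and 3, against 347, 385 and 394 CPM in WT replicates 1, 2 and 3. The groups overlapped, and the highest library exceeded the lowest 1.15-fold. The log2 fold change was -0.04 (SE 0.119, 95% confidence interval -0.32 to 0.23), and 0.0027 (SE 0.113) with the sex-marker term. By set it was 0.03 with Y-linked transcripts and -0.03 with Xist. Of the 8 genes Insr had the highest CPM, above 98.3% of tested genes.

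Of the 2 docking-protein genes, neither passed the test, and the spread between libraries was wider for Irs2, as the highest library exceeded the lowest 5.70-fold, than for Irs1, at 1.49-fold. Irs1 (chromosome 1, 82233101 to 82291416, minus strand) had 103, 74.9 and 112 CPM in Lmln-KO, against 106, 99.4 and 96.7 CPM in WT. Lmln-KO replicate 2 was the low library and Lmln-KO replicate 3 the high one, so the groups overlapped. Its log2 fold change was -0.06 (SE 0.153, 95% confidence interval -0.42 to 0.29), and once the sex-marker set was in the fit it was -0.03 (SE 0.149). Split by set the signs differed, with -0.27 where Y-linked transcripts were present and 0.19 where Xist was.

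Irs2 (chromosome 8, 10984681 to 11008458, minus strand), which FOXO factors induce in fasted liver, had 38.3, 24.2 and 130 CPM in Lmln-KO, against 100, 121 and 138 CPM in WT. Both Lmln-KO libraries with Y-linked transcripts lay below every other library, and Lmln-KO replicate 3 lay among the WT libraries, so the groups overlapped. Lmln-KO libraries averaged 64.0 ± 57.3 CPM and WT libraries 120 ± 18.9 CPM (SD, n = 3 each). The log2 fold change of -0.90 (SE 0.689) had a 95% confidence interval of -2.69 to 0.89 and did not pass the test, nor did it with the sex-marker term (-0.83, SE 0.456). The difference of mean log2 CPM was -1.71 among libraries with Y-linked transcripts and 0.0065 among libraries with Xist. A test of the difference between the sets, edgeR's interaction term, gave -1.68 (SE 0.374) with an unadjusted p of 0.00318, which did not pass after adjustment over all genes (adjusted p = 1.0). The same term in DESeq2 had an adjusted p of 0.715. Each set holds 1 genotype as a single library, so this difference rests on WT replicate 1 and Lmln-KO replicate 3.

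Downstream of the docking proteins, RNA for the regulatory subunit of phosphoinositide 3-kinase was higher in Lmln-KO and RNA for the kinase AKT2 slightly lower. Neither passed the adjusted threshold. Pik3r1 (chromosome 13, 101680563 to 101768217, minus strand) had 212, 228 and 200 CPM in Lmln-KO, against 178, 187 and 123 CPM in WT. Every Lmln-KO library was above every WT library, and WT replicate 3 stood lowest. The fold change was 1.31 (log2 0.39, SE 0.166, 95% confidence interval 0.01 to 0.77). The unadjusted p of edgeR's test was 0.0464 by genotype alone and 0.064 with the sex-marker term, and the adjusted p was 0.933 and 0.987. Within the sets the difference of mean log2 CPM was 0.31 with Y-linked transcripts and 0.40 with Xist.

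Akt2 (chromosome 7, 27591552 to 27640826, plus strand) had 50.7, 48.7 and 46.3 CPM in Lmln-KO, against 52.2, 51.4 and 56.4 CPM in WT. The Lmln-KO libraries were all below the WT libraries, but by little. The log2 fold change was -0.14 (SE 0.0931), with a 95% confidence interval of -0.35 to 0.08, and -0.15 (SE 0.0965) with the sex-marker term. Split by set, the difference was -0.07 where Y-linked transcripts were present and -0.22 where Xist was.

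Of the 2 FOXO factors, Foxo1 was lower in every Lmln-KO library and Foxo3 was not distinguished from WT. Foxo1 (chromosome 3, 52268336 to 52353221, plus strand), the principal FOXO factor of hepatic gluconeogenesis, had 59.7, 53.0 and 62.0 CPM in Lmln-KO, against 63.2, 75.5 and 92.1 CPM in WT. The groups did not overlap, although Lmln-KO replicate 3 and WT replicate 1 nearly touched. The fold change was 0.757 (log2 -0.40, SE 0.148, 95% confidence interval -0.74 to -0.06). The unadjusted p of edgeR's test was 0.0264 by genotype alone and 0.0371 with the sex-marker term, and neither passed after adjustment (0.933 and 0.987). In the set with Y-linked transcripts it differed by -0.17 in mean log2 CPM, and in the set with Xist by -0.43.

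Foxo3 (chromosome 10, 42181841 to 42276755, minus strand), a factor that shares the DNA motif of FOXO1, had 102.3, 99.9 and 113 CPM in Lmln-KO, against 118, 104 and 113 CPM in WT. The groups overlapped and the highest library exceeded the lowest 1.18-fold. Its log2 fold change was -0.09 (SE 0.104, 95% confidence interval -0.33 to 0.15), and -0.08 (SE 0.104) with the sex-marker term. Split by set the signs differed here too, at -0.22 with Y-linked transcripts and 0.05 with Xist.

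Igfbp1, the secreted target of FOXO in the set, spanned the widest range of the 8 genes. Igfbp1 (chromosome 11, 7197782 to 7202546, plus strand) had 182, 155 and 2045 counts in Lmln-KO, against 1020, 4492 and 4367 counts in WT. As levels these were 8.74, 7.32 and 87.2 CPM in Lmln-KO, against 60.6, 240 and 251 CPM in WT. Within each sex-marker set the Lmln-KO libraries were the low ones, but Lmln-KO replicate 3 lay above WT replicate 1, so the genotypes overlapped when the sets were pooled.

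By genotype alone the log2 fold change of Igfbp1 was -2.42 (SE 1.32) with a 95% confidence interval of -5.98 to 1.14, and edgeR's adjusted p was 0.933. DESeq2 gave it no p in that fit. With the sex-marker term the log2 fold change was -2.17 (SE 0.337, 95% confidence interval -3.04 to -1.30), a fold change of 0.222. That fit gave an unadjusted p of 0.00146 and an adjusted p of 0.761 in edgeR, while DESeq2 gave -2.18 (SE 0.286) and an adjusted p of 2.11e-10. The call thus depends on the tool and on the fit, since DESeq2 gave a p only with the term. Why DESeq2 gave none by genotype alone was not tested. Foxo1 was the other of 2 genes at an unadjusted p under 0.05 in edgeR with the term, where 4.34% of tested genes stood, and at the adjusted threshold that fit called 0.00535% of genes and none of the 8.

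In units of log2 CPM, Igfbp1 differed by -2.90 in the set with Y-linked transcripts and by -1.49 in the set with Xist. The interaction term for it was -1.42 (SE 0.244, edgeR's unadjusted p of 0.000567, adjusted p = 1.0, DESeq2's adjusted p of 0.657). Igfbp1 and Irs2 were the 2 of 8 genes with an unadjusted interaction p under 0.05, where 2.43% of tested genes had one. No gene passed the interaction test in edgeR and 3 did in DESeq2 (0.016%), none of them among the 8. With the term, leaving out Lmln-KO replicate 3 gave Igfbp1 a log2 fold change of -2.91 and an adjusted p of 0.00912, in a fit where 0.00524% of genes were called. There genotype rests on Lmln-KO replicates 1 and 2 against WT replicate 1 alone, a single library whose spread is assumed to be like that of the others. Leaving out WT replicate 1, which leaves Lmln-KO replicate 3 alone against WT replicates 2 and 3, gave -1.49 and an adjusted p of 0.281.

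**Figure D2:**
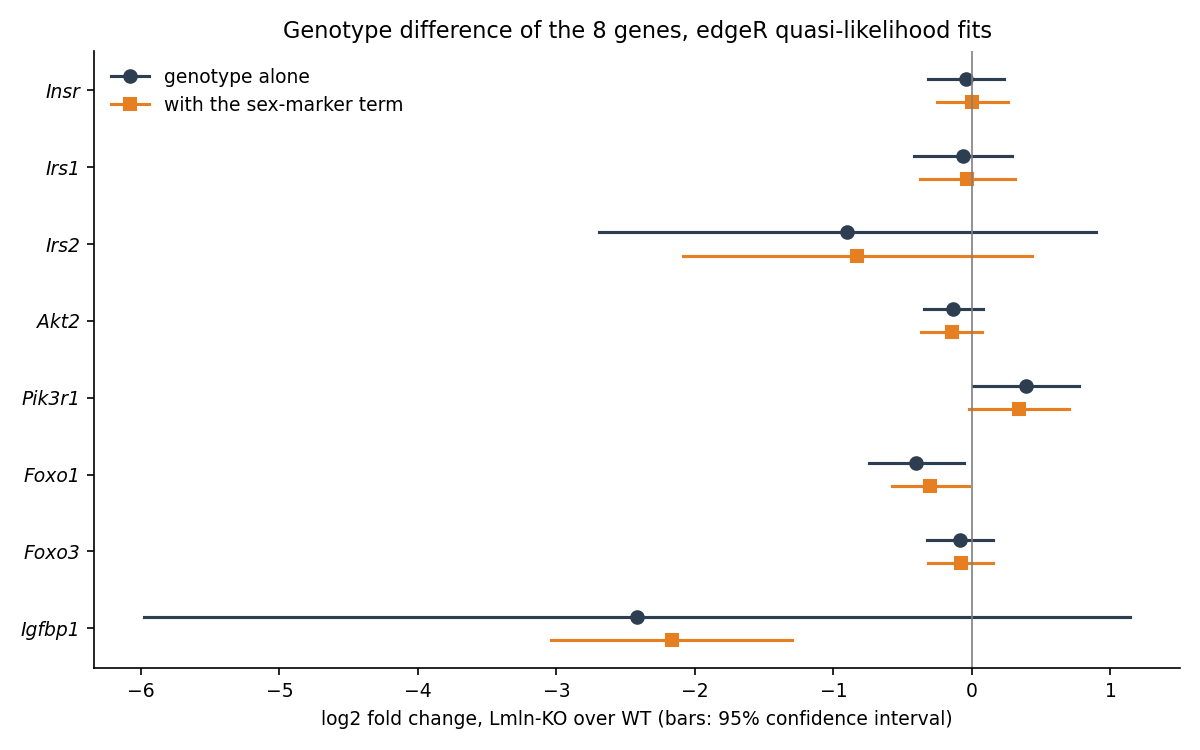
log2 fold change of Lmln-KO over WT (horizontal axis) with its 95% confidence interval for the 8 genes, from edgeR by genotype alone (circles) and with the sex-marker term (squares). The interval of Igfbp1 runs from -5.98 to 1.14 by genotype alone and from -3.04 to -1.30 with the term, and that of Irs2 covers 0 in both fits.

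Per kilobase of exon, Igfbp1 was the most abundant of the 8 in the mean over all 6 libraries, at 71.6 CPM per kb, although its mean was 22.6 in Lmln-KO and 121 in WT. It was followed by Insr at 26.9, Pik3r1 at 18.7, Irs2 at 14.5, Foxo3 at 14.3, Irs1 at 10.8, Foxo1 at 7.80 and Akt2 at 7.14 CPM per kb. Igfbp1 ran from 4.80 to 165 CPM per kb and Irs2 from 3.82 to 21.8 CPM per kb, so neither had a fixed place in this order. Insr was above Pik3r1 in every library (24.8 to 28.6 against 12.3 to 22.6 CPM per kb). The ratio of the highest to the lowest library was 34.3 for Igfbp1 and 5.70 for Irs2. For the other 6 genes it ran between 1.15 and 1.85. Counting ignored strand, and Irs1 shares 2822 of its 9144 exon bases with Gm9747, Foxo1 shares 674 of 8665 with Gm20402 and Irs2 shares 162 of 6323 with 9530052E02Rik, all on the opposite strand. Gm9747 and Gm20402 had 0 counts in every library and 9530052E02Rik at most 3, so the levels of Irs1 and Foxo1 per kilobase may be understated. Per kilobase of unshared exon, Irs1 averaged 15.6, Irs2 14.9, Foxo3 14.3 and Foxo1 8.46 CPM, which puts Irs1 above Irs2 and Foxo3. On that length Irs1 ran from 11.8 to 17.7 CPM per kb and overlapped Foxo3, which ran from 13.2 to 15.5, as well as Irs2 and Pik3r1. Foxo1 and Akt2 overlapped one another on either length.

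Shares within a gene family do not depend on depth, and they set each gene against its closest relatives. Irs2 made up 35.0, 31.8 and 62.6% of the counts per kilobase of Irs1 and Irs2 together in Lmln-KO, against 57.7, 63.7 and 67.3% in WT. Lmln-KO replicates 1 and 2 were the low libraries, and Lmln-KO replicate 3 lay among the WT libraries. The mean share was 43.2 ± 16.9% in Lmln-KO and 62.9 ± 4.86% in WT (SD, n = 3 each), a difference of -19.8 percentage points that did not pass an exact two-sided permutation test (p = 0.2). The difference was -24.3 points in the set with Y-linked transcripts and -2.91 points in the set with Xist, and it ran from -29.5 to -14.1 points when 1 library was left out. When the exon bases shared with other genes were left out of the lengths, the shares were 27.7, 24.9 and 54.3% in Lmln-KO, against 49.2, 55.5 and 59.4% in WT.

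Pik3r1 supplied most of the transcripts for regulatory subunits, with 75.8, 77.5 and 74.9% of Pik3r1 to Pik3r3 in Lmln-KO, against 70.5, 74.7 and 67.5% in WT. All Lmln-KO libraries were higher, by 5.17 points on average, and the exact permutation test gave p = 0.1, the smallest that 3 against 3 libraries allow. The other regulatory subunit gene whose RNA was high in Lmln-KO, Pik3r3, lies in the same denominator. Foxo1 was 24.9, 21.5 and 22.6% of Foxo1, Foxo3 and Foxo4 in Lmln-KO, against 24.8, 26.8 and 30.4% in WT (-4.34 points, exact permutation p = 0.2). The share of Foxo1 overlapped between the groups.

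**Figure D3:**
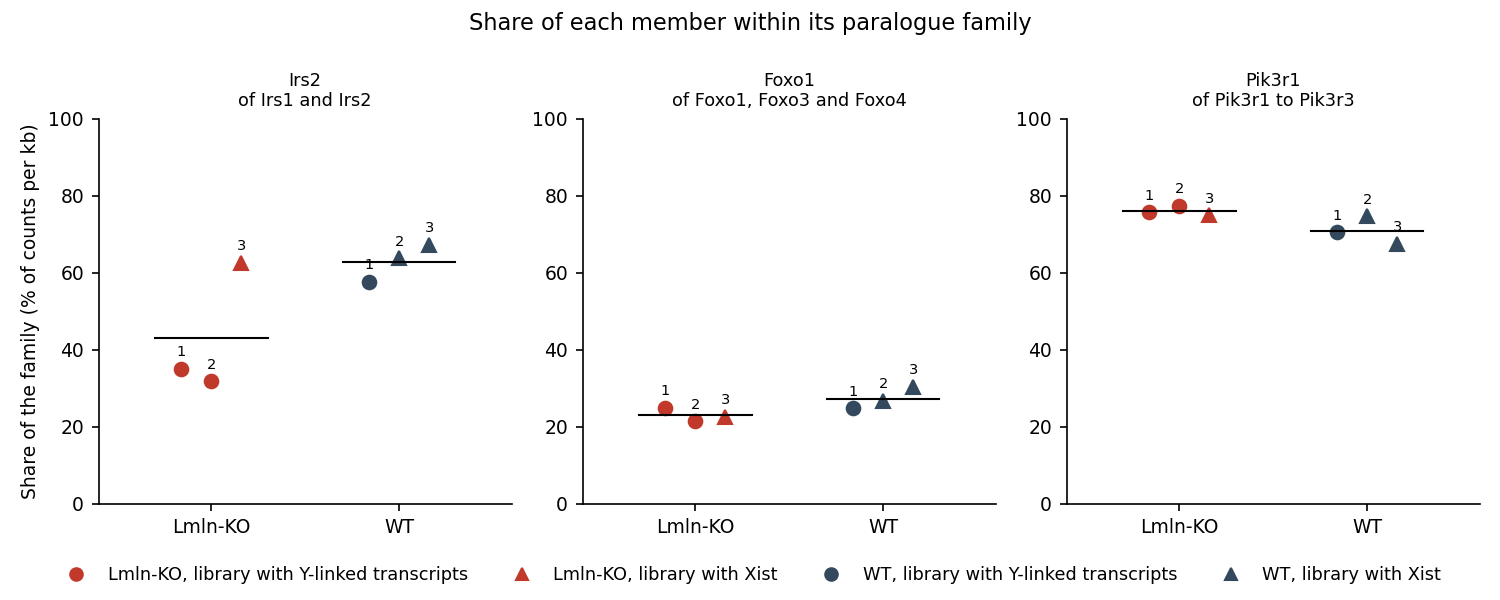
Share of each gene in the summed counts per kilobase of its family (percent, axes from 0 to 100), by library, with the replicate number above each point, circles for libraries with Y-linked transcripts, triangles for libraries with Xist, and a line at the group mean. Irs2 stands at 35.0 and 31.8% in Lmln-KO replicates 1 and 2 and at 57.7% or more in the other 4 libraries.

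Around these 8 genes, 139 others of the pathway and its outputs were followed in 10 lists, of which 134 had enough counts to be tested. Insrr, Irs4, Foxo6, Igf2 and Igfbp6 did not. No listed gene passed edgeR's adjusted threshold. Over all 134 genes 72 log2 fold changes were positive and 62 negative, with a median of 0.01 beside -0.0038 for all tested genes, and an unadjusted p under 0.05 was reached by 3 higher and 8 lower genes, where 1.52% of tested genes were higher and 3.14% lower.

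At the receptor, 10 adaptor and receptor-level genes had a median log2 fold change of 0.0039, and none had an unadjusted p under 0.05. Igf1r, the receptor of insulin-like growth factor 1, was at -0.18 and the adaptors Grb2 and Crk were at -0.07 and 0.11. Of 12 genes listed as brakes on the receptor, 8 were positive and 4 negative, with a median of 0.06. In this list only the docking protein gene Dok4 had an unadjusted p under 0.05, and whether it acts as a brake was not tested. Its level was 2.07, 2.08 and 1.92 CPM in Lmln-KO, against 0.831, 1.02 and 1.61 CPM in WT (log2 0.81, SE 0.312). Dok4 was near the lower limit of what was tested, so these values rest on few reads. Socs3, which blocks insulin and cytokine receptors, was at 0.89, Grb10 at 0.54 and Grb14 at 0.16, and their groups overlapped.

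Between the docking proteins and AKT, 6 of 12 genes were positive and 6 negative, with a median of 0.0084. Pik3r3, a smaller regulatory subunit, had 4.47, 3.83 and 2.47 CPM in Lmln-KO, against 2.43, 1.98 and 1.61 CPM in WT (log2 0.83, SE 0.293, edgeR's unadjusted p of 0.0215). The groups did not overlap, and Pik3r3 thus lay on the same side as Pik3r1 at a far lower level. Pik3cd, a catalytic subunit enriched in leukocytes, was at -0.61 (unadjusted p of 0.0425), with 8.55, 6.75 and 5.58 CPM in Lmln-KO, against 8.02, 9.47 and 14.3 CPM in WT, and the sums of lymphocyte markers were lower in Lmln-KO as well. In the set with Y-linked transcripts Pik3cd differed by -0.08. Pdpk1, which encodes the kinase that activates AKT, was at 0.15 with 81.7, 89.3 and 85.1 CPM in Lmln-KO, against 75.4, 78.6 and 76.7 CPM in WT.

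Of 12 brakes on phosphoinositide 3-kinase and AKT, 6 were positive and 6 negative (median -0.0014). Inpp4b, a lipid phosphatase, was lower without overlap, at 3.41, 2.27 and 4.14 CPM in Lmln-KO, against 4.57, 5.51 and 6.16 CPM in WT (log2 -0.72, SE 0.257, unadjusted p of 0.0223). The AKT phosphatase gene Phlpp2 was at 0.26, the phosphatase 2A subunit Ppp2r5b at 0.21 and the AKT-binding pseudokinase Trib3 at -0.36. Among 14 effectors of AKT and mTORC1, 10 were positive and 4 negative, with a median of 0.10. Gys2, the liver glycogen synthase, was the one with an unadjusted p under 0.05 (0.0273), at 119, 144 and 127 CPM in Lmln-KO, against 173, 142 and 200 CPM in WT (log2 -0.40, SE 0.149). Gys2 overlapped between the groups, since Lmln-KO replicate 2 was just above WT replicate 2. Prkci, an atypical protein kinase C, was at 0.28, Gsk3b, the kinase that inhibits glycogen synthase, at 0.19 and Tsc1, a brake on mTORC1, at -0.20. Of 12 FOXO relatives and regulators none had an unadjusted p under 0.05. Their log2 fold changes lay between -0.10 and 0.18, among them the 14-3-3 genes Ywhag at 0.18, Ywhab at 0.12 and Ywhaz at 0.09 and the kinase gene Stk4 at -0.10.

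**Figure D4:**
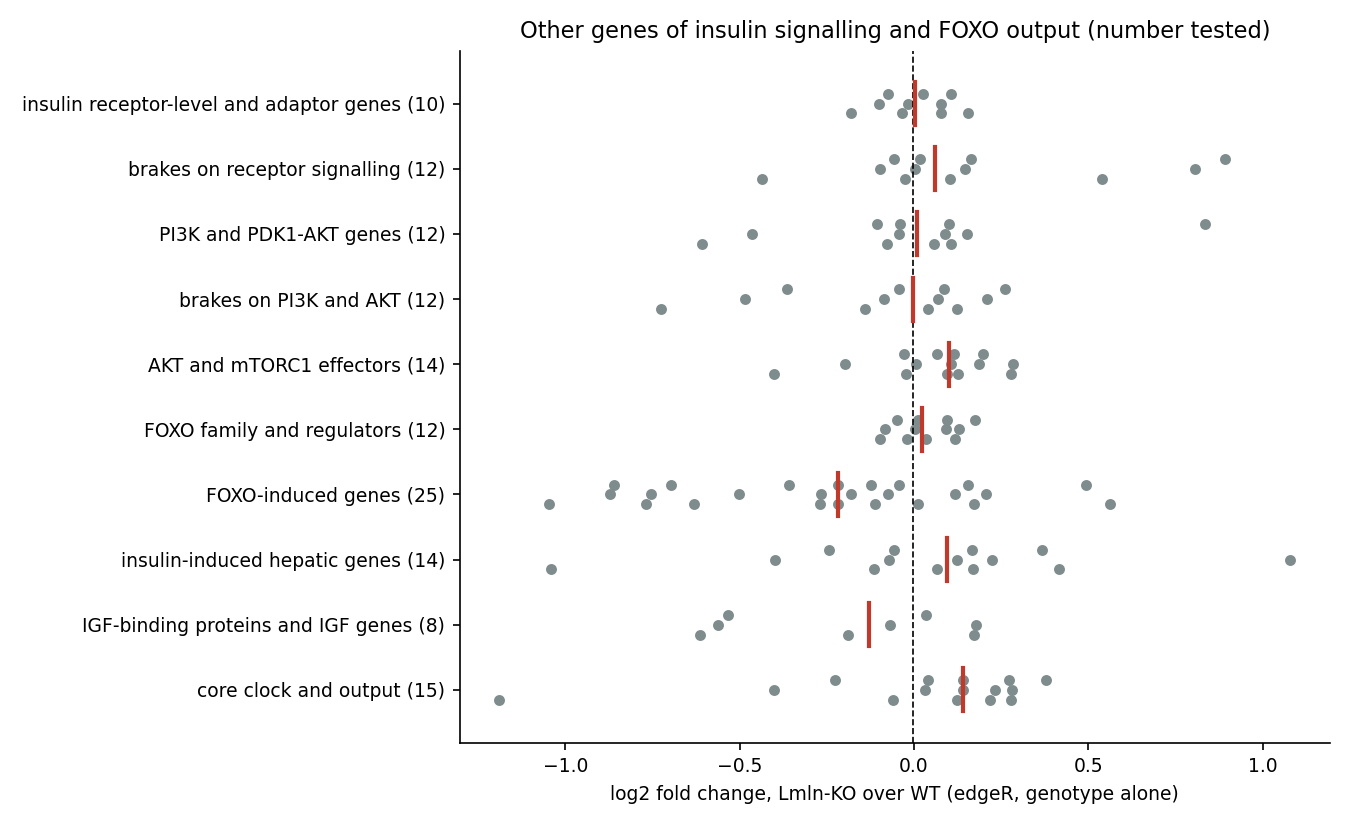
log2 fold change of Lmln-KO over WT (horizontal axis, edgeR by genotype alone) for each tested gene of the 10 lists, 1 row per list with the number tested in parentheses, and a vertical bar at the list's median. By genotype alone the FOXO-induced genes have a median of -0.22, and the medians of the other lists lie between -0.13 and 0.14.

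The 25 genes known to be induced by FOXO factors had a median log2 fold change of -0.22 by genotype alone, with 18 negative and 7 positive. The median was -0.13 with the sex-marker term, -0.18 in the set with Y-linked transcripts and -0.11 in the set with Xist. The median stayed negative in every alternative run, between -0.31 and -0.061, the smallest with the term and without WT replicate 3, and it was -0.069 with the term and the replicate block. By genotype alone an unadjusted p under 0.05 was reached by 3 of the 25, all lower in Lmln-KO and all without overlap. Of all tested genes, 3.14% were lower at that p and 5.73% were lower without overlap. With the term, where 4.34% of tested genes reached an unadjusted p under 0.05, 2 lower genes of the list did, G6pc and Pck1. So did 1 higher gene, Cited2, a transcriptional coregulator named after its values were seen (log2 0.30).

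G6pc, the catalytic subunit of glucose-6-phosphatase, had 489, 613 and 521 CPM in Lmln-KO, against 1290, 989 and 1076 CPM in WT. The highest Lmln-KO library was well below the lowest WT library. Its log2 fold change was -1.05 (SE 0.162) and its adjusted p was 0.933 in edgeR and 2.3e-06 in DESeq2, which called 0.128% of tested genes by genotype alone, none of the 8 and no other of the lists. Pck1, which encodes the cytosolic phosphoenolpyruvate carboxykinase of gluconeogenesis, had 2199, 1471 and 2414 CPM in Lmln-KO, against 2540, 3134 and 5454 CPM in WT (log2 -0.87, SE 0.319, unadjusted p of 0.0268). Klf15, a fasting-induced transcription factor of amino acid breakdown, had 160, 146 and 172 CPM in Lmln-KO, against 201, 176 and 299 CPM in WT (log2 -0.50, SE 0.198, unadjusted p of 0.0346). When 1 library was left out, with or without the term, Pck1 ran from -1.08 to -0.43, Klf15 from -0.65 to -0.24 and G6pc from -1.22 to -0.93. WT replicate 3 was the highest library for Klf15 and Pck1. Of the 8 genes it was also the highest for Insr, Irs2, Akt2, Foxo1 and Igfbp1, but not for Irs1, Pik3r1 or Foxo3. Gadd45a, a growth arrest gene, lay the other way at 0.49 (unadjusted p of 0.0811). Hepatocyte marker sums, of which Alb is the largest part, were lower in Lmln-KO libraries too, and their part in this list was not tested.

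The 14 hepatic genes that insulin induces had a median of 0.09 by genotype alone and -0.10 with the sex-marker term, and it was also negative without Lmln-KO replicate 2 (-0.098) or without WT replicate 3 (-0.16), so the list has no settled direction. Angptl8 was at 1.08, Pklr at 0.42 and Pnpla3 at -1.04, each with overlapping groups. With 1 library left out, Angptl8 ran from 0.027 to 1.62 and Pnpla3 from -2.21 to -0.028. With the sex-marker term DESeq2 called 3 listed genes, G6pc (adjusted p of 4.32e-09), Per1 and Scd1. Scd1, the stearoyl-CoA desaturase, is named here after its values were seen and had a log2 fold change of -1.05 in that fit (adjusted p of 0.00214). Scd1 had 7688, 9882 and 2228 CPM in Lmln-KO, against 13667, 5665 and 6751 CPM in WT, and was lower in Lmln-KO within both sets.

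Among 8 other genes of the insulin-like growth factor system, 5 were negative and 3 positive, with a median of -0.13 by genotype alone. With the sex-marker term the median was -0.016. By set it was 0.028 with Y-linked transcripts and -0.094 with Xist, so this list has no settled direction either. Igfbp5, a binding protein made mostly outside hepatocytes, had 7.49, 8.97 and 8.61 CPM in Lmln-KO, against 11.7 to 12.7 CPM in the WT libraries. The groups stood clearly apart (log2 -0.53, SE 0.133, edgeR's unadjusted p of 0.00378, adjusted p = 0.933). Igfbp3, the main carrier in serum, was at -0.56 and Igfbp2 at -0.61, but in both WT replicate 3 was high and the groups overlapped. Igfbp7 was at -0.19.

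Irs2 and Igfbp1 are known to follow feeding and the hour of day, which the labels do not give, so 15 clock genes and outputs were read beside them. Of these 11 were positive and 4 negative, with a median of 0.14. Dbp, a clock output gene, had 41.2, 37.6 and 51.4 CPM in Lmln-KO, against 29.4, 37.1 and 33.6 CPM in WT (log2 0.38, SE 0.145, unadjusted p of 0.031), the groups falling just short of overlap. Per1, a clock gene that glucocorticoids and fasting also induce, had 17.8, 13.8 and 42.4 CPM in Lmln-KO, against 32.4, 61.4 and 75.0 CPM in WT, an order of libraries close to that of Irs2. The log2 fold change of Per1 was -1.19 by genotype alone (SE 0.553) and -0.86 with the sex-marker term, where DESeq2 called it (adjusted p of 0.0055) and edgeR did not. Cry2 was at 0.28 and Nr1d1 at 0.14. The part of the hour of collection in the levels of Igfbp1 and Irs2 was not tested.

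The genes whose profile over the 6 libraries was most like that of Irs2, among 11575 compared by the root mean square difference of centred log2 CPM, were Arrdc4 (0.303), Per1 (0.333) and Caprin2 (0.381). Arrdc4, an arrestin-domain gene, had 12.3, 7.56 and 33.7 CPM in Lmln-KO, against 17.6, 35.9 and 31.7 CPM in WT. For Igfbp1 they were Sybu (0.80), Ntrk2 (0.845) and Tcf24 (0.89), a much looser match. Ntrk2, a neurotrophin receptor gene, had 5.52, 5.15 and 30.0 CPM in Lmln-KO, against 8.61, 46.4 and 63.5 CPM in WT, high in the libraries with Xist. Within both sets Ntrk2 was also lower in Lmln-KO (-0.68 and -0.85), and with the sex-marker term DESeq2 called it (log2 -0.78, adjusted p of 0.0498) while edgeR did not (adjusted p of 0.584). These likenesses rest on 6 libraries and are a description.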

How the data were processed

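Whole-liver RNA, in 3 libraries of Lmln-KO and 3 of WT, was sequenced as 2x36-base read pairs after ribosomal RNA depletion and directional library preparation, per the labels' protocols. Deposited were raw counts per gene name, which the authors made with featureCounts 2.0.1 over exons of Ensembl release 102 (GRCm38), per the file headers. The command there sets no paired-end, strand or overlap option. Subread 2.0.2, featureCounts and edgeR 3.36.0 are named in the submitters' processing notes. They do not say whether Subread served as the aligner.

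From these counts, levels (CPM) and tests were computed with edgeR 4.0.16 in R 4.3.3. TMM scaling and filterByExpr with a minimum count of 10 left 18703 genes with 99.8% of counts. Genotype was tested by a robust quasi-likelihood fit, with p-values adjusted by Benjamini-Hochberg over all tested genes and a threshold of 0.05. A standard error is the size of the log2 fold change over the square root of F. The sex-marker term contrasts libraries by Xist against 4 summed Y-linked genes. Within-set differences and likeness use log2 CPM with a prior count of 2. Replicates of a group differed beyond sampling noise (chi-square of 35.2 to 93.7 per degree of freedom). Alternatives were other scalings and filters, DESeq2 1.42.0, limma-voom (limma 3.58.1), the replicate number as a block, and leaving out each library. Shares were compared by an exact permutation test in SciPy 1.17.1. Only the edgeR fits by genotype alone and with the sex-marker term were tested on simulated counts, and the other steps were not.

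The 8 genes, the lists and the tests were chosen with earlier results of these data known. Named beside them are Lmln, up to 4 genes per list with the smallest p by genotype alone, and for the 2 genes with the widest range the 3 most alike (average log2 CPM of at least 1). Promoters come from RefSeq (GRCm38.p6), matched by symbol for 7 of the 8. Some named genes and 1 family share are not reported here.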

Additional observations from a re-analysis of the deposited data

How the results depend on the processing

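Over 24 alternatives, 49 genes kept the sign of their log2 fold change in 1148 of 1173 values. Most of them were named for a small p by genotype alone, which favours a kept sign. Igfbp1 (-4.51 to -1.49), Foxo1 (-0.52 to -0.16), Pik3r1 (0.22 to 0.50) and Akt2 (-0.22 to -0.07) kept theirs in every alternative run. The other scalings moved the median of all genes by at most 0.026 in size. Beside 0 calls by genotype alone, DESeq2 called 24 of all genes, 31 with the sex-marker term, and edgeR called 3 without a filter, 1 with the sex-marker term, 1 with the replicate block and 16 with both. Leaving out 1 library, with or without the term, gave 0 to 4 calls. Of the 8 genes, 1 was called by DESeq2 with the term and 0 to 1 when 1 library was left out, both times Igfbp1, the second with WT replicate 1 as the only WT library that bears on genotype. Of the listed genes, DESeq2 called 1, DESeq2 with the term 3 and edgeR without a filter 1. For the interaction DESeq2 called 3 genes, against 0. The cause of these differences was not tested.

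The correlations of same-numbered deviations from the group means were 0.46, -0.31 and 0.41. For every pair the sign followed the sex-marker sets, positive within a set and negative across sets. These correlations therefore cannot show whether the replicate numbers pair the samples. Lmln-KO replicates 2 and 3 each correlated best with a WT library of another number. The block alone called 0 of the 8 genes. Insr, at -0.04, was at 0.0027 with the sex-marker term, 0.011 in DESeq2 with it and 0.025 with the term and the replicate block, and Irs1, at -0.06, was at 0.082 with the last. Leaving out 1 library, with or without the term, gave Insr -0.0933 to 0.0403, Irs1 -0.25 to 0.19, Irs2 -1.93 to 0.00456, Foxo3 -0.21 to 0.0541, Igf1r -0.33 to 0.06, Socs3 -0.0659 to 1.27, Grb14 -0.0563 to 0.35, Trib3 -0.99 to 0.32, Ywhaz -0.0298 to 0.17, Pklr -0.0774 to 0.65 and Igfbp7 -0.33 to 0.045, so none of these has a settled direction. Family shares with lengths less the bases shared with other genes were chosen after seeing the data, and no share changed direction. With 3 libraries a group, the 95% confidence interval of a variable gene such as Irs2 is wide (-2.69 to 0.89).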
